A study of Mus musculus with 12 samples.

Results

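Interleukins and the tumor necrosis factor (TNF) family are secreted or membrane-bound messengers of inflammation, and they are described here together with their receptors in injured mouse kidneys. The members were the protein-coding rows whose gene symbol begins with Il and a digit, with Tnfsf or with Tnfrsf, or is Tnf. The rule found 117 rows of the 54532 in each expression table (115 distinct symbols, because Il11ra2 is listed on several rows): 50 ligands, 62 receptors, 4 soluble inhibitors and Il4i1, an enzyme that is neither.

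Kidney RNA of 12 C57BL/6 mice was sequenced in 4 groups of 3: mice labelled Bcat KO (β-catenin knockout) and their WT controls, both after unilateral ureteral obstruction (UUO), and mice labelled CD44 KO and their WT controls, both after unilateral ischemia-reperfusion injury (UIRI). In UUO the ureter of a kidney is tied off, and in UIRI the vessels of a kidney are clamped and released. β-catenin was deleted by a Cre recombinase under the kidney cadherin (Ksp) promoter, which acts in tubular epithelium, and the controls did not carry this Cre. How CD44 was deleted is not given in the sources used here, and no uninjured kidney was analysed here, so that every comparison is between genotypes after injury.

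Interleukin receptors are mostly pairs of chains, and several ligands share a chain: Il2rg, the common γ chain, serves interleukins of the IL-2 group, and Il6st (gp130) serves those of the IL-6 group. TNF ligands act as trimers, many of them on the cell surface, and their receptors signal through TRAF adaptors to NF-κB or through a death domain to cell death. In the injured kidney, tubular cells release alarm signals of the IL-1 family and carry TNF receptors, while incoming macrophages, neutrophils and lymphocytes supply many of the other ligands and receptors.

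Values are FPKM, the fragments of a gene per kilobase of its length after scaling for depth, and 15940405 to 20737443 reads per library were assigned to genes. Ctnnb1, which encodes β-catenin, was at 84.7, 71.4 and 71.7 FPKM in Bcat KO mice, against 91.2, 86.7 and 98.5 FPKM in WT mice after UUO. The groups did not overlap (exact permutation test, two-sided, p = 0.1, and 3 mice against 3 cannot give a lower one), and the adjusted p from limma was 0.189. Cd44 was at 19.0, 11.97 and 13.9 FPKM in mice labelled CD44 KO, against 19.9, 16.3 and 17.8 FPKM in WT mice after UIRI. These groups overlapped (exact permutation test, two-sided, p = 0.3), so Cd44 RNA did not separate the libraries labelled CD44 KO from their controls, and the directions given below for UIRI rest on the labels. In the UUO table the WT library of replicate 3 stood apart, with neutrophil markers summing to 575 FPKM, against 33.5 to 33.7 FPKM in the other WT libraries and 15.2 to 48.7 FPKM in Bcat KO libraries. Each knockout was compared with the WT mice of its own table by limma on log2(FPKM + 1), keeping genes whose 6 libraries averaged 0.5 FPKM or more. A gene is called higher or lower at an adjusted p (Benjamini-Hochberg) under 0.05, and log2 fold changes are knockout minus WT on this scale, given with their standard error (SE).

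The receptors of the family were the more abundant class in these kidneys. Summed over the 62 receptors, levels were 485, 490.0 and 462 FPKM in Bcat KO mice and 432, 448 and 559 FPKM in WT mice after UUO. The 50 ligands summed to 162, 202 and 151 FPKM in Bcat KO mice and 166, 258 and 424 FPKM in WT mice. After UIRI the receptors summed to 431 to 460.4 FPKM in CD44 KO mice and 413 to 456 FPKM in WT mice, and the ligands to 126 to 137 FPKM and 139 to 166 FPKM. A few genes made up most of these sums. Il34, a ligand of the macrophage receptor Csf1r, was the most abundant ligand in both tables (mean over 6 libraries 82.1 FPKM after UUO and 57.2 FPKM after UIRI). Il34 overlaps an antisense gene, Gm15895, with a mean of 26.0 FPKM in the UUO table, and the use of strand in counting is not given, so reads of this pair cannot be told apart. It was followed by Il1f6, the IL-1 family ligand also known as IL-36α (27.96 FPKM after UUO and 18.0 FPKM after UIRI). The most abundant receptors after UUO were Tnfrsf21 (death receptor 6, 113 FPKM), Tnfrsf1a (the TNF receptor found on most cells, 62.7 FPKM), Tnfrsf12a (Fn14, the receptor of TWEAK, 58.2 FPKM) and Il6st (33.1 FPKM). After UIRI they were Tnfrsf12a (92.5 FPKM), Tnfrsf21 (59.5 FPKM) and Tnfrsf1a (57.8 FPKM). Il13ra1, Il17rc, Il4ra and, after UIRI, Il11ra1 also ranked among the 8 most abundant receptors, at 12.8 to 29.6 FPKM.

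Far below these, 44 members had a mean under 0.5 FPKM in both tables and were not tested, among them most T-cell cytokines. Il3, Il20, Il31, Il17b, Il1f8 and a copy of Il11ra2 had 0 reads in all 12 libraries, where a count of 3 reads would be 0.131 to 0.27 FPKM. Il10, an anti-inflammatory ligand, stayed at 0.571 FPKM or less in every library of the UUO table and at 0.193 FPKM or less in the UIRI table. Tnfsf11 (RANKL), the ligand of Tnfrsf11a, was at 0.026, 0.112 and 0.0252 FPKM in Bcat KO mice, against 0.23, 0.549 and 0.158 FPKM in WT mice. Tnfrsf11b (osteoprotegerin), its decoy receptor, was at 0, 0.0223 and 0.0399 FPKM in Bcat KO mice, against 0.183, 0.171 and 0.271 FPKM in WT mice. Both were below the level for testing in every group mean and rested on few reads. In WT replicate 3 after UUO these were 6 reads for Tnfsf11 and 13 for Tnfrsf11b.

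After UUO, members of both families were mostly lower in Bcat KO mice. Of the 71 members tested, 15 were called lower, 1 (Tnfrsf21) was called higher and 55 did not pass the test. Over all 16166 genes tested, 4.36% were called lower and 6.21% higher. The median log2 fold change of the tested members was −0.48, against 0.01 over all genes, and 59 of the 71 were negative. At an unadjusted p under 0.05 there were 35 members lower and 4 higher, where the shares over all genes were 12.9% and 17%. In 35 members every Bcat KO mouse was below every WT mouse (15.9% of all genes) and in 4 every one was above (19.6%). Of the 71, 10 passed the filter only through the WT mean, Il1a, Il6 and Tnfsf8 among them, and for these a lower value in Bcat KO mice was built into the filter.

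With FPKM rescaled to TPM, which gives every library the same total, the median of all genes moved to −0.19 and that of the members to −0.80, 0.61 below all genes. The split over all genes then became 578 higher and 1178 lower, against 1004 and 705 as deposited, while 21 members were called lower and 1 higher. The counts also leaned on single libraries. Between 4 (without WT replicate 2) and 16 (without Bcat KO replicate 3) members were called lower when a library was left out, and 12 without WT replicate 3.

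Ligands and receptors moved the same way in Bcat KO mice. Of 25 ligands tested, 4 were called lower and 0 higher, with a median log2 fold change of −0.65, and the unadjusted counts were 11 lower and 1 higher. Of 44 receptors tested, 11 were called lower and 1 higher, with a median of −0.41, and 23 were lower and 3 higher at an unadjusted p under 0.05. Of the 25 ligands 6, the called Tnfsf8 among them, and of the 44 receptors 4 passed the filter only through the WT mean. The lower values of these were built into the filter, so the 2 medians are not compared on equal terms. Without WT replicate 3 the medians were −0.42 for ligands and −0.31 for receptors. The median within-group SD on the log2 scale was 0.24 for ligands and 0.17 for receptors in Bcat KO mice, and 0.30 and 0.17 in WT mice. Without WT replicate 3 the WT values were 0.15 and 0.11. By family, 6 ligands of the IL-1 family were tested, of which Il1a and Il1f9 passed the filter only through the WT mean. The other 4 were Il1b, Il1f6, Il33 and Il18, at −2.67, −1.84, −1.77 and −0.71. The 5 receptors of the IL-17 family were near 0 (median 0.01, none called).

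**Figure D1:**
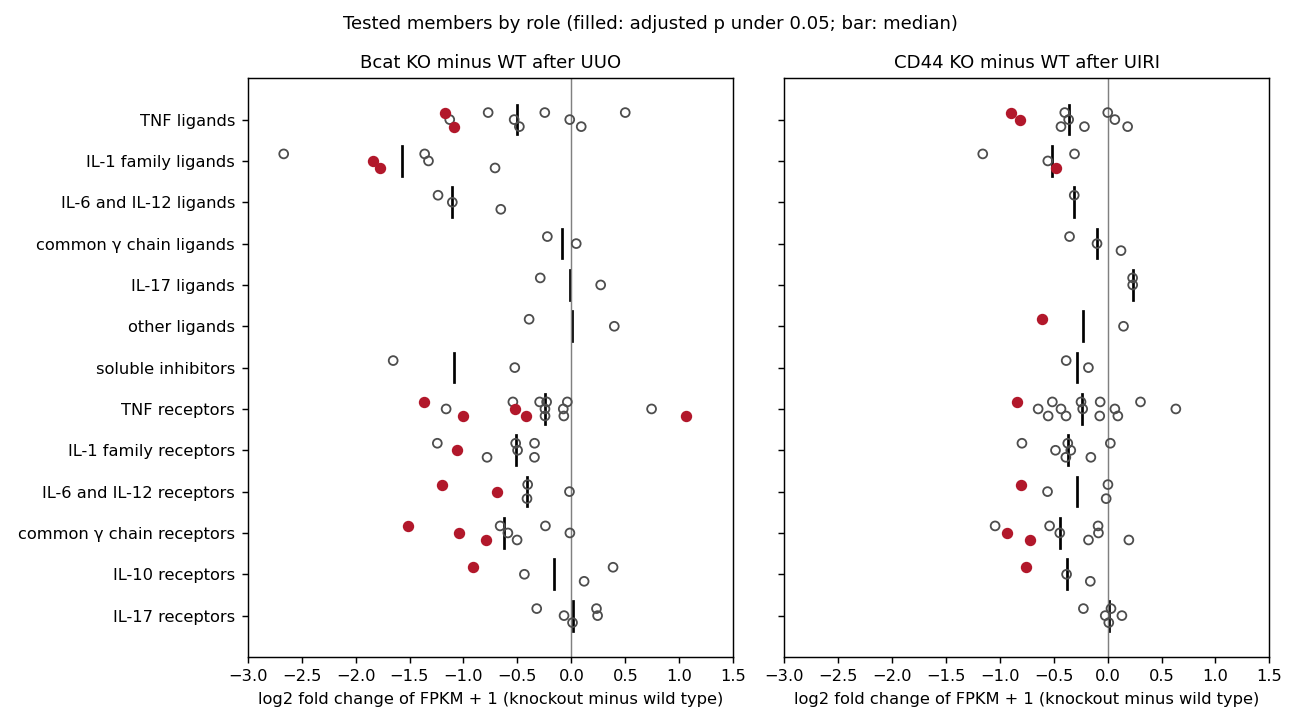
Log2 fold changes (knockout minus WT, of FPKM + 1) of the tested members by role, for Bcat KO against WT after UUO (left) and CD44 KO against WT after UIRI (right). Each point is a gene, filled where called, and black bars are medians; 2 of the 6 IL-1 family ligands after UUO (Il1a and Il1f9) passed the filter only through the WT mean, and IL-17 receptors lie around 0 in both tables (median 0.01 in each).

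Among the ligands, those of the IL-1 family and of the TNF superfamily held all 4 calls after UUO. Il33, an alarm signal released by damaged epithelium and stroma, was at 7.91, 7.14 and 11.6 FPKM in Bcat KO mice, against 22.9, 30.3 and 47.7 FPKM in WT mice. Its lowest WT value was about 2 times the highest value in Bcat KO mice. Means were 8.88 ± 2.37 and 33.6 ± 12.7 FPKM (SD, n = 3 each), a log2 fold change of −1.77 ± 0.28 (SE, limma adjusted p = 0.0153, and 0.0622 without WT replicate 2). Il1f6 was at 7.11, 8.4 and 19.1 FPKM in Bcat KO mice, against 22.8, 69.7 and 40.6 FPKM in WT mice. The groups did not overlap but came close, and both were wide (log2 fold change −1.84 ± 0.46 SE, limma adjusted p = 0.0485). This call was lost without Bcat KO replicate 1 or 2, or without WT replicate 2 or 3 (adjusted p = 0.10 to 0.135).

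Tnfsf13b (BAFF), a survival factor of B cells made largely by myeloid cells, was at 0.863, 0.805 and 0.967 FPKM in Bcat KO mice, against 2.75, 3.18 and 3.06 FPKM in WT mice. Replicates of each group lay close together, and WT mice were 3.41-fold higher in the mean. The log2 fold change was −1.09 ± 0.12 (SE, limma adjusted p = 0.00814), and the call was kept with each library left out. Tnfsf8 (CD30 ligand) was at 0.122, 0.281 and 0.133 FPKM in Bcat KO mice, against 1.65, 2.23 and 1.16 FPKM in WT mice, 9.41-fold higher in the WT mean. Its log2 fold change was −1.17 ± 0.18 (SE, limma adjusted p = 0.0154, and 0.0626 without WT replicate 2). Tnfsf8 rested on as few as 8 reads in a Bcat KO library. It passed the filter only through the WT mean, so a lower value in Bcat KO mice was built into the filter.

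Other ligands of these kidneys did not pass the test. Tnfsf10 (TRAIL), an inducer of cell death, had a log2 fold change of −0.25 ± 0.34 (SE), and Tnfsf12 (TWEAK), the ligand of Tnfrsf12a, one of 0.09 ± 0.11 (SE). Il34 was at 102, 111 and 67.6 FPKM in Bcat KO mice and at 51.9, 76.5 and 83.6 FPKM in WT mice, which overlap. Il18, a ligand matured by caspase-1, was at 2.54, 5.12 and 2.73 FPKM in Bcat KO mice, against 5.35, 6.73 and 6.16 FPKM in WT mice. The Il18 groups did not overlap (log2 fold change −0.71 ± 0.22 SE), but the adjusted p from limma was 0.0797. Il18bp, which binds and blocks IL-18, was at 3.86, 21.0 and 4.07 FPKM in Bcat KO mice and at 6.35, 15.1 and 12.7 FPKM in WT mice. Il15, a ligand for lymphocytes that tubular cells also make, was at 3.47, 9.67 and 5.0 FPKM in Bcat KO mice and at 4.76, 7.56 and 4.29 FPKM in WT mice. Both Il18bp and Il15 were highest in Bcat KO replicate 2.

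Several of the best known inflammatory members were high in a single mouse. Il1b, the central IL-1 ligand, was at 0.579, 2.6 and 4.31 FPKM in Bcat KO mice, against 7.43, 7.11 and 112 FPKM in WT mice. All Bcat KO mice were below all WT mice, yet the WT mean was set by replicate 3, and the adjusted p from limma was 0.132 (log2 fold change −2.67 ± 1.02 SE). Without WT replicate 3 the log2 fold change was −1.41 (adjusted p = 0.125 from limma). In the same library Il1a was at 20.2 FPKM and Il6 at 10.3 FPKM, where none of the other 5 libraries exceeded 0.255 FPKM for Il1a or 0.278 FPKM for Il6. Il1r2, a decoy receptor that captures IL-1, reached 12.7 FPKM there, against at most 0.728 FPKM in any other library. Il1rn, the IL-1 receptor antagonist, was at 2.12, 2.54 and 2.78 FPKM in Bcat KO mice, against 3.16, 7.59 and 35.3 FPKM in WT mice. Tnf was at 2.02, 3.45 and 1.48 FPKM in Bcat KO mice, against 3.14, 4.43 and 14.4 FPKM in WT mice. Il11, an IL-6 group ligand linked to fibrosis, was at 0.404, 0.5 and 0.895 FPKM in Bcat KO mice, against 1.25, 1.94 and 6.87 FPKM in WT mice. None of these 7 was called (adjusted p = 0.11 to 0.445 from limma).

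Of the members with reads in any of the other 5 libraries, 17 were at least 2-fold above each of those in WT replicate 3, and 6 of them at least 10-fold. Of the 17, 14 had at least 10 reads in this library. The same counts over all genes were not made, so whether the members stand out in it cannot be said. Some of the 17 had been near 0 elsewhere and are named after their values were seen. They were Il1f9 (IL-36γ) at 18.6 FPKM against at most 0.486 FPKM, Il12a at 0.796 FPKM against at most 0.0662 FPKM and Il23a at 0.733 FPKM against at most 0.125 FPKM. Il17a (0.955 FPKM, 19 reads), Il22 (0.53 FPKM, 10 reads) and Il13ra2 (0.0258 FPKM, 1 read) had 0 reads in each of the other 5 libraries of that table. No fold can be given for them, and they are not in the counts above. Of the 7 listed neutrophil markers, S100a8 was at 183 FPKM, S100a9 at 308 FPKM and Csf3r at 41.7 FPKM in this library. Ly6g was at 0.437 FPKM, close to the other WT libraries, and the rest of the list is given only in the sum. What part neutrophils had in the values of this mouse was not tested.

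**Figure D2:**
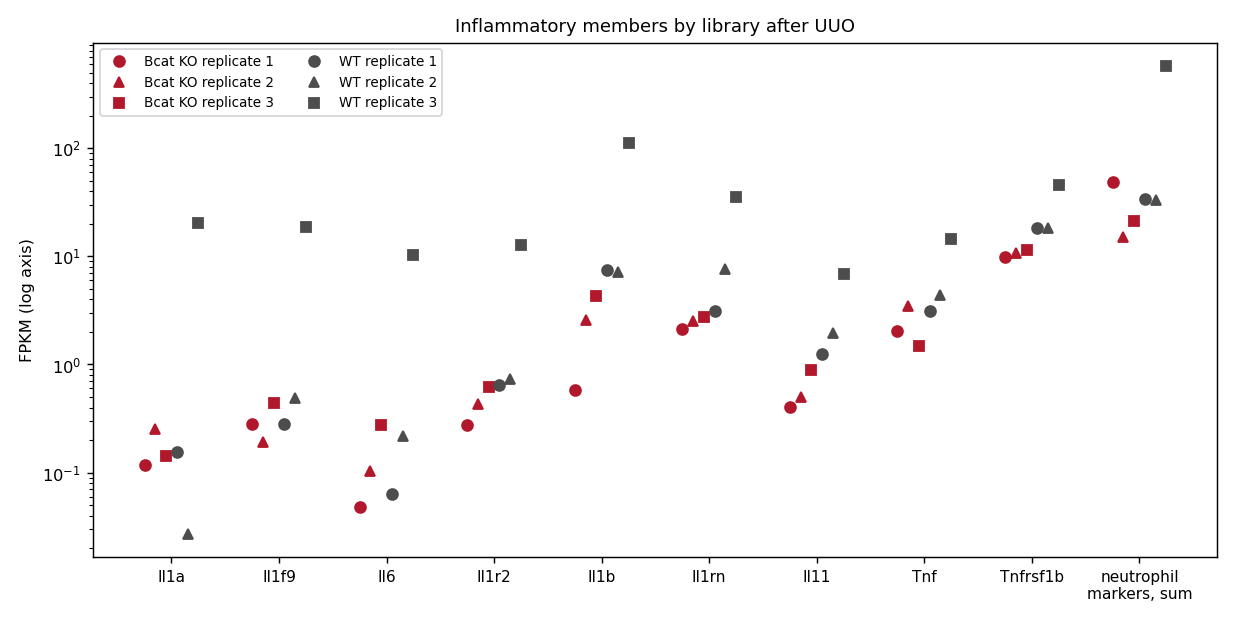
FPKM (log axis) of 9 inflammatory members and of the summed neutrophil markers in each of the 6 libraries after UUO, Bcat KO in red and WT in gray. The gray squares, WT replicate 3, lie above all other libraries in every column, from 575 FPKM for the neutrophil markers to 6.87 FPKM for Il11.

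The receptors called lower in Bcat KO mice were led by chains that leukocytes carry. Tnfrsf14 (HVEM), the receptor of the TNF ligand LIGHT, was at 3.52, 3.93 and 3.09 FPKM in Bcat KO mice, against 9.39, 11.3 and 11.3 FPKM in WT mice. The gap between the groups was wider than the range of either. The log2 fold change was −1.37 ± 0.12 (SE, limma adjusted p = 0.00613), with a mean 3.03-fold higher in WT. Il2rg, the common γ chain, was at 2.29, 2.79 and 1.84 FPKM in Bcat KO mice, against 6.99, 10.5 and 7.99 FPKM in WT mice. Its log2 fold change was −1.51 ± 0.17 (SE, limma adjusted p = 0.00878), the lowest of the called receptors. Il27ra, the receptor chain of IL-27, was at 1.03, 1.11 and 1.14 FPKM in Bcat KO mice, against 3.76, 4.92 and 2.96 FPKM in WT mice (log2 fold change −1.20 ± 0.16 SE, limma adjusted p = 0.0116). Tnfrsf14, Il2rg and Il27ra were still called whichever library was dropped. Il27ra overlaps Palm3 on the other strand (mean 2.73 FPKM after UUO).

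Partners of the common γ chain were lower as well. Il2rb, the β chain of the IL-2 and IL-15 receptors, was at 1.44, 1.88 and 1.44 FPKM in Bcat KO mice, against 3.68, 3.74 and 3.05 FPKM in WT mice (log2 fold change −0.80, adjusted p = 0.0159 from limma). Il21r was at 0.927, 1.82 and 1.17 FPKM in Bcat KO mice, against 3.69, 4.22 and 3.22 FPKM in WT mice (log2 fold change −1.05, adjusted p = 0.0161 from limma). In both genes the groups were clearly apart, but both calls were lost without WT replicate 1 or 2 (adjusted p = 0.0507 to 0.069), and that of Il2rb also without Bcat KO replicate 1. Il4ra, which pairs with the γ chain or Il13ra1, had a log2 fold change of −0.66 and an adjusted p of 0.0653 from limma. Il15ra, with overlapping groups, was at −0.01.

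Il10ra, the ligand-binding chain of the IL-10 receptor, was at 5.62, 7.4 and 8.16 FPKM in Bcat KO mice, against 14.9, 15.2 and 12.2 FPKM in WT mice (log2 fold change −0.91 ± 0.15 SE, limma adjusted p = 0.018). Its partner Il10rb had a log2 fold change of −0.44 and an adjusted p of 0.0519 from limma. The call of Il10ra was lost without WT replicate 1 (adjusted p = 0.057) or 2 (0.0728). Tnfrsf13b (TACI), a receptor of BAFF, was at 1.11, 1.37 and 1.15 FPKM in Bcat KO mice, against 3.22, 4.65 and 2.66 FPKM in WT mice. The lowest WT mouse was about 2 times the highest Bcat KO mouse (log2 fold change −1.01 ± 0.18 SE, limma adjusted p = 0.0189, and 0.0502 to 0.0582 without Bcat KO replicate 1 or 2 or WT replicate 1 or 2).

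Il1r1, Il6st, Tnfrsf18 and Tnfrsf11a were the other receptors called lower. Il1r1, the signalling IL-1 receptor, was at 3.43, 1.83 and 4.02 FPKM in Bcat KO mice, against 7.43, 6.99 and 7.44 FPKM in WT mice (log2 fold change −1.06 ± 0.21 SE, limma adjusted p = 0.0251). Il6st (gp130) was at 25.4, 22.0 and 27.9 FPKM in Bcat KO mice, against 36.9, 39.5 and 46.9 FPKM in WT mice (log2 fold change −0.69 ± 0.14 SE, limma adjusted p = 0.0268). For each of them the groups did not overlap. Each call was kept without Bcat KO replicate 3, as was that of Il1r1 without Bcat KO replicate 2, and lost without any other library (adjusted p = 0.0546 to 0.0847). Tnfrsf18 (GITR) and Tnfrsf11a (RANK) had log2 fold changes of −0.52 (adjusted p = 0.036 from limma) and −0.42 (adjusted p = 0.0493 from limma). The call of Tnfrsf18 was lost with any library left out (adjusted p = 0.0609 to 0.11), as was that of Tnfrsf11a except without Bcat KO replicate 3. Tnfrsf18 overlaps an antisense gene, Gm16008 (mean 4.94 FPKM after UUO).

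Of the receptors that did not pass, Tnfrsf1b, the TNF receptor of leukocytes, was at 9.8, 10.7 and 11.4 FPKM in Bcat KO mice, against 18.4, 18.4 and 45.6 FPKM in WT mice (adjusted p = 0.065 from limma). Without the high WT replicate 3 it was called lower (log2 fold change −0.74, adjusted p = 0.0295 from limma). Il1rl1 (ST2), the receptor of IL-33, was at 0.169, 0.155 and 0.473 FPKM in Bcat KO mice, against 1.38, 1.57 and 0.649 FPKM in WT mice. Its adjusted p from limma was 0.0606 with all libraries and 0.0386 without WT replicate 3. Il6ra, the ligand-binding chain for IL-6, was at −0.41 (adjusted p = 0.104 from limma). Tnfrsf1a had a log2 fold change of −0.07 ± 0.13 (SE), and Il17ra of −0.07 ± 0.19 (SE), with overlapping groups. Il22ra1, the epithelial receptor of IL-22, was at 1.36, 0.807 and 0.504 FPKM in Bcat KO mice and at 0.802, 0.312 and 1.12 FPKM in WT mice.

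Few members ran higher in Bcat KO mice, and the 4 without overlap were Tnfrsf21, Tnfrsf12a, Tnfsfm13 and Il20rb. Tnfrsf21, a death-domain receptor, was at 143, 153 and 158 FPKM in Bcat KO mice, against 62.9, 59.1 and 100.1 FPKM in WT mice. Every Bcat KO mouse exceeded every WT mouse, and the mean was 2.04-fold higher (log2 fold change 1.06 ± 0.21 SE, limma adjusted p = 0.0248). The call was lost without Bcat KO replicate 1 or 2 or WT replicate 1 or 2 (adjusted p = 0.0655 to 0.0869). Tnfrsf12a (Fn14) was at 88.4, 81.7 and 51.4 FPKM in Bcat KO mice, against 42.4, 41.9 and 43.4 FPKM in WT mice. Its groups did not overlap, with a log2 fold change of 0.74 ± 0.20 (SE), but the adjusted p from limma was 0.0607, and it was called by voom on recovered reads (adjusted p = 0.0353).

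**Figure D3:**
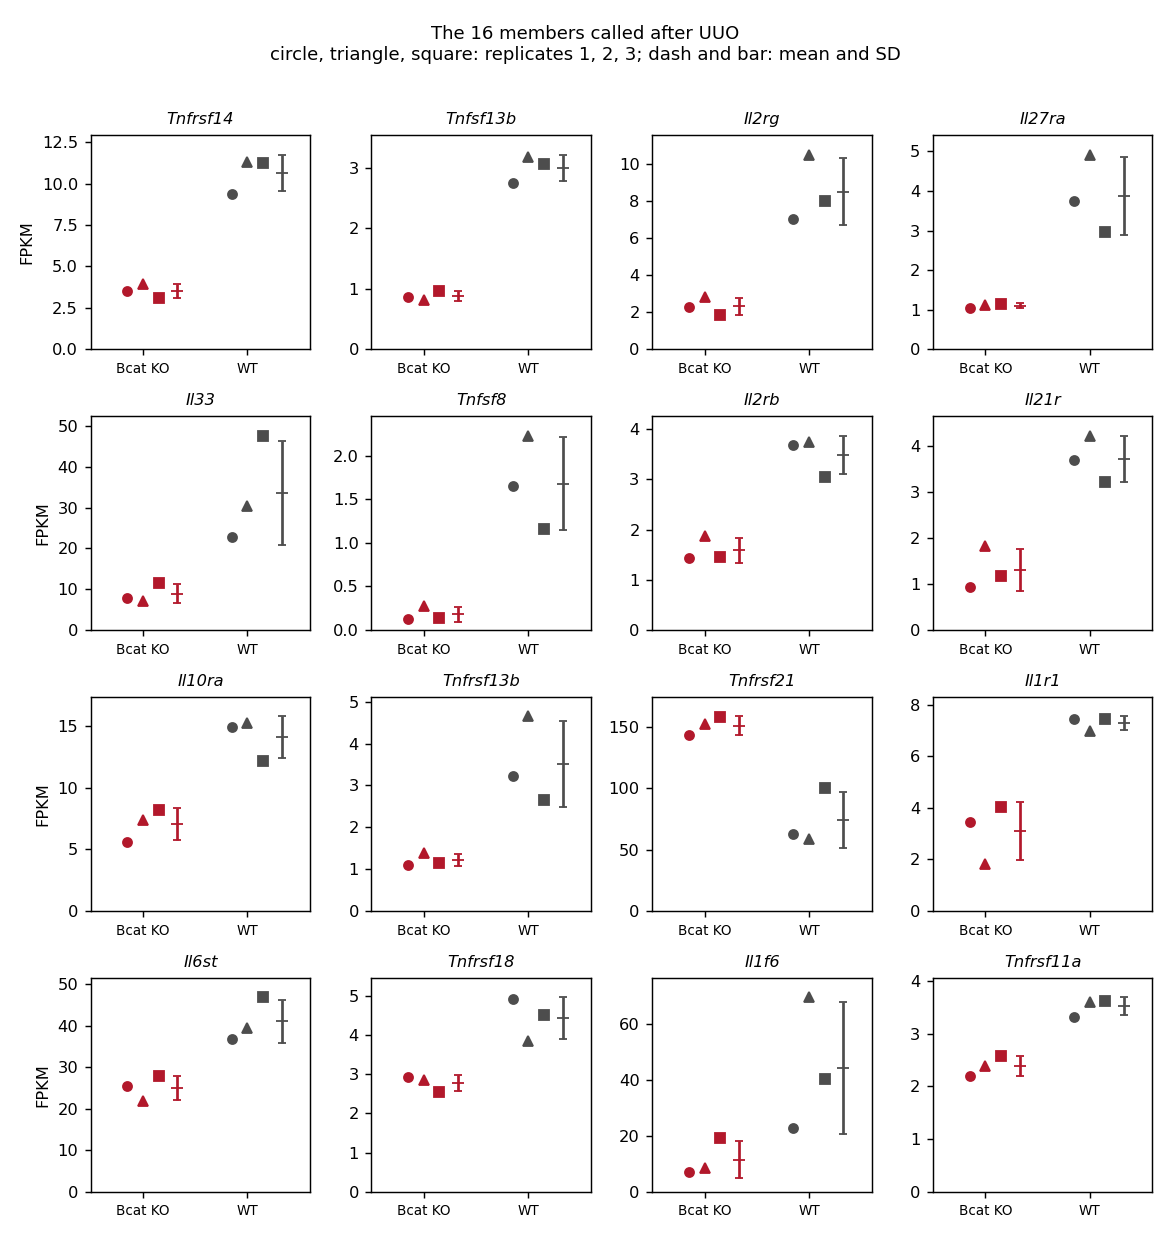
FPKM of the 16 members called after UUO in each Bcat KO mouse (red, left) and WT mouse (gray, right), with mean and SD beside them (n = 3 each). In all 16 panels the groups do not overlap, and Tnfrsf21 alone is higher in Bcat KO mice (143, 153 and 158 FPKM).

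Some marker lists of the cells that carry many of these genes moved with them, and others held 0 calls. Over all genes tested, 4.36% were called lower and 6.21% higher. Of 12 macrophage and monocyte markers, 9 were called lower in Bcat KO mice, with sums of 622 to 718 FPKM in Bcat KO libraries against 1170.4 to 1431 FPKM in WT libraries. Ptprc (CD45), which marks leukocytes, was at 2.17, 3.02 and 3.38 FPKM in Bcat KO mice, against 7.83, 9.76 and 10.1 FPKM in WT mice (log2 fold change −1.41, adjusted p = 0.0086 from limma). Of 11 T and NK cell markers, 0 were called, with sums of 9.5 to 29.2 FPKM in Bcat KO mice and 19.4 to 55.1 FPKM in WT mice. Fibroblast and pericyte markers had 4 of 6 lower, dendritic cell markers 2 of 5 and endothelial markers 1 of 5. Neutrophil (6 tested), B and plasma cell (3) and podocyte (3) markers had 0 called. Their median log2 fold changes were −1.36, −0.32 and −0.21, and that of the T and NK cell markers −0.60, against 0.01 over all genes. Proximal tubule markers had 5 of 9 higher, thick ascending limb and distal tubule 1 of 4, and collecting duct 1 of 4. No list summed to 0 in any library, and Ly6g was at 0 in Bcat KO replicate 2. The part that cell numbers had in the members' values was not tested, since in whole kidney fewer cells of a type and less RNA per cell cannot be told apart.

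After UIRI, the members that changed in mice labelled CD44 KO were all lower. Of the 65 members tested, 9 were called lower and 0 higher, where 2.19% of the 16113 genes tested were called lower and 4.02% higher. At an unadjusted p under 0.05 there were 26 lower and 1 higher (11.2% and 15.8% of all genes). The median log2 fold change was −0.31, against 0.00 over all genes, and 48 of 65 were negative. In 26 members every CD44 KO mouse was below every WT mouse (14.5% of all genes) and in 2 above (19.1%). Of 21 ligands 4 were called lower, with a median of −0.31, and of 42 receptors 5 were called lower, with a median of −0.24. No member passed the filter through 1 group alone.

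These calls rested on nearly every library. Leaving out any of them except CD44 KO replicate 2 left 0 members called by limma, and between 1 and 10 genes in all. Voom on recovered reads called 14 members lower and 1 higher with all libraries. Without CD44 KO replicate 2 limma called 13 lower and 1 (Tnfrsf12a) higher. With no filter on low values 0 members were called, and 43 genes were higher and 20 lower. With FPKM rescaled to TPM the median of all genes moved to −0.12 and that of the members to −0.48, with 11 called lower.

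Il27ra was at 1.37, 1.2 and 1.07 FPKM in CD44 KO mice, against 2.59, 2.72 and 3.31 FPKM in WT mice (log2 fold change −0.80 ± 0.11 SE, limma adjusted p = 0.0267). Il7r, the receptor of the T-cell survival factor IL-7, was at 0.644, 0.52 and 0.468 FPKM in CD44 KO mice, against 1.69, 1.74 and 2.49 FPKM in WT mice. The Il7r mean was 3.62-fold higher in WT (log2 fold change −0.94 ± 0.14 SE, limma adjusted p = 0.027). Il7r was not tested after UUO, where its mean was below the filter. Tnfsf13b (BAFF) was at 0.95, 1.4 and 1.14 FPKM in CD44 KO mice, against 3.01, 2.37 and 2.99 FPKM in WT mice (log2 fold change −0.81, adjusted p = 0.0286 from limma).

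Both sides of the TNF axis were lower. Tnf was at 0.846, 1.66 and 1.21 FPKM in CD44 KO mice, against 3.34, 2.72 and 3.3 FPKM in WT mice, a WT mean 2.52-fold higher (log2 fold change −0.89 ± 0.16 SE, limma adjusted p = 0.0326). Tnfrsf1b was at 8.73, 9.1 and 7.36 FPKM in CD44 KO mice, against 17.5, 13.1 and 17.1 FPKM in WT mice (log2 fold change −0.84 ± 0.13 SE, limma adjusted p = 0.0288). Tnfrsf1a, the receptor with the wider tissue range, had a log2 fold change of 0.10 ± 0.11 (SE, limma adjusted p = 0.606) and overlapping groups.

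Il10ra was at 8.7, 8.63 and 6.96 FPKM in CD44 KO mice, against 13.0, 13.5 and 16.7 FPKM in WT mice (log2 fold change −0.76, adjusted p = 0.0305 from limma). Il21r was at 1.91, 2.22 and 1.62 FPKM in CD44 KO mice, against 3.37, 3.37 and 4.73 FPKM in WT mice (log2 fold change −0.72, adjusted p = 0.0403 from limma). Il16, a chemoattractant of CD4+ cells, was at 1.01, 1.08 and 0.948 FPKM in CD44 KO mice, against 1.76, 2.01 and 2.47 FPKM in WT mice (log2 fold change −0.61, adjusted p = 0.0392 from limma). Il16 overlaps Stard5 on the other strand (mean 18.0 FPKM in the UUO table). Il1b was at 3.42, 3.18 and 2.87 FPKM in CD44 KO mice, against 5.28, 4.5 and 4.61 FPKM in WT mice (log2 fold change −0.48, adjusted p = 0.0409 from limma). All 9 called members thus had groups that did not overlap, and their adjusted p with a library left out ran from 0.067 to 0.151 except without CD44 KO replicate 2.

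**Figure D4:**
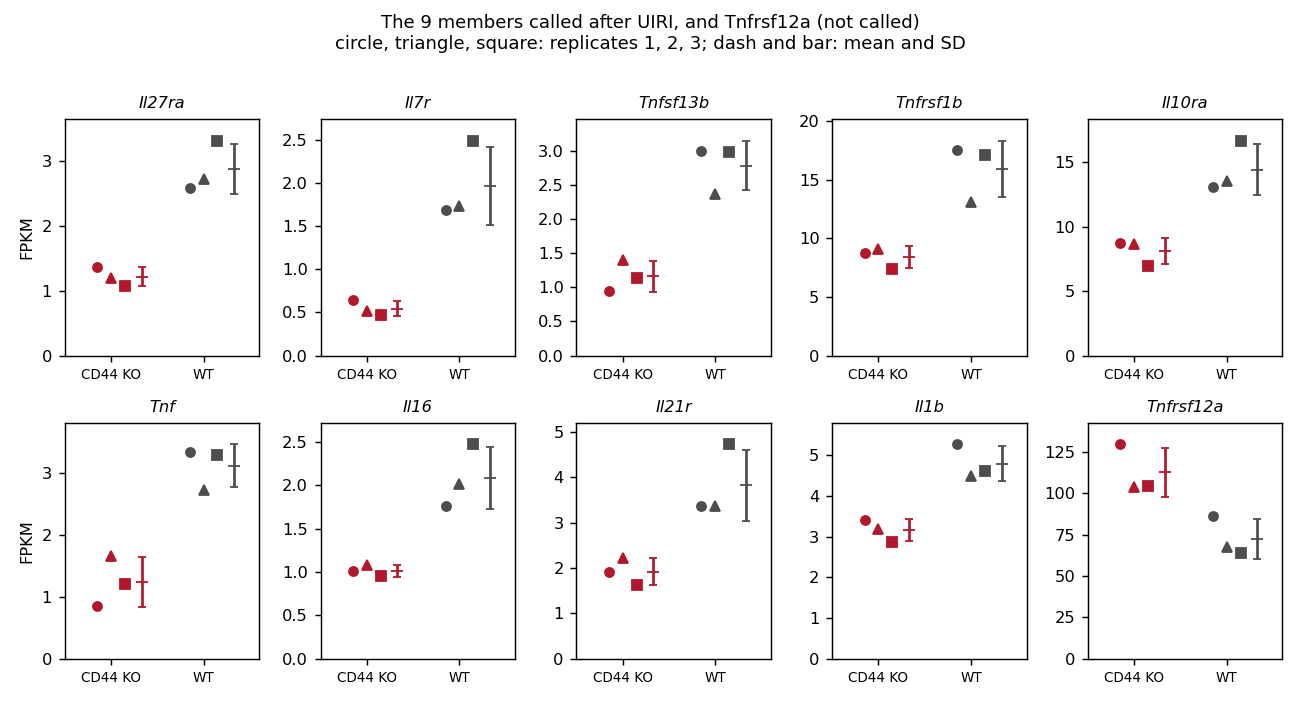
FPKM of the 9 members called after UIRI, and of Tnfrsf12a, which was not called, in each CD44 KO mouse (red, left) and WT mouse (gray, right), with mean and SD beside them (n = 3 each). Each called member is lower in all CD44 KO mice, and Tnfrsf12a is higher in all of them (103.7 to 129.7 FPKM, against 63.7 to 86.1 FPKM).

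Just past the threshold after UIRI, Tnfsf10 (TRAIL) was at 6.22, 6.7 and 7.53 FPKM in CD44 KO mice, against 9.48, 9.33 and 8.99 FPKM in WT mice (adjusted p = 0.0502 from limma). Il2rg (log2 fold change −1.04, adjusted p = 0.0549 from limma), Il1r1 (−0.48, 0.0582), Il6ra (−0.56, 0.0591) and Il33 (−1.16, 0.0703) also had all CD44 KO mice below all WT mice. Tnfrsf12a had a log2 fold change of 0.63 ± 0.15 (SE, limma adjusted p = 0.057), the highest of the tested members, and Tnfrsf21 one of 0.31 (adjusted p = 0.307 from limma). Il34, Il6st, Il15, Tnfsf12, Il17ra and Il11ra1 had overlapping groups and log2 fold changes between −0.01 and 0.15. Il22ra1, below the filter, was at 0.382, 0.92 and 0.612 FPKM in CD44 KO mice, against 0.278, 0.148 and 0.295 FPKM in WT mice, so that here the knockout mice were the higher ones.

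Leukocyte markers were also lower in these libraries. Over all genes tested, 2.19% were called lower and 4.02% higher. Of 12 macrophage and monocyte markers 7 were called lower, with sums of 823 to 1433 FPKM in CD44 KO mice against 2130.5 to 2199 FPKM in WT mice. Of 10 T and NK cell markers tested 6 were called lower, with sums of 9.9 to 15.4 FPKM in CD44 KO mice against 30.3 to 52.6 FPKM in WT mice. Fibroblast and pericyte markers had 2 of 6 lower and proximal tubule markers 4 of 9 higher, and 0 genes of the neutrophil (5 tested), B and plasma cell (3), dendritic (5), endothelial (5), podocyte (3), distal tubule (4) and collecting duct (4) lists were called. The neutrophil sum was 16.5 to 18.5 FPKM in CD44 KO mice and 25.9 to 62.9 FPKM in WT mice. Their part in the members' values was not tested.

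The members were then set side by side over the 2 knockouts. Of 63 members tested in both tables, 43 were negative in both (33.2% of the 15489 genes tested in both), 8 positive in both and 12 differed in sign. All knockout mice were below all WT mice in both tables for 18 of the 63 (5.66% of all genes). After UUO, some of the 63 passed the filter only through the WT mean. Among these were Il1rl1 and Tnfsf8, and, of the 18, Il1r2 and Tnfsf14. For them a lower value in Bcat KO mice was built into the filter. Il27ra, Tnfsf13b, Il10ra and Il21r, 4 of the 21 members called in either table, were called lower in both, as were 0.807% of all genes (4 of 16 called after UUO and 4 of 9 after UIRI). Their log2 fold changes after UUO and UIRI were −1.20 and −0.80 for Il27ra, −1.09 and −0.81 for Tnfsf13b, −0.91 and −0.76 for Il10ra, and −1.05 and −0.72 for Il21r. They lie at chr8:84030294-84042589 (Il27ra), chr8:10006467-10039072 (Tnfsf13b), chr9:45253837-45269149 (Il10ra) and chr7:125603429-125633570 (Il21r) in GRCm38, as the deposited tables give each gene's span. The tables share no samples, but they differ in the gene deleted and in the injury, which cannot be told apart.

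The difference of the 2 knockout effects was tested over 15489 genes in all 12 libraries. Only 1 gene (0.00646%) and 0 members passed the adjusted threshold, by limma and, among members, also by voom, and 13 of 63 members had an unadjusted p under 0.05, 11 with a negative difference (6.76% of all genes) and 2 with a positive one (7.06%). The smallest p belonged to Il20rb, a chain of the IL-20 group receptors. It was at 1.62, 1.67 and 1.82 FPKM in Bcat KO mice, against 1.43, 0.863 and 0.951 FPKM in WT mice after UUO, and at 0.961, 1.21 and 0.76 FPKM in CD44 KO mice, against 1.56, 1.46 and 1.67 FPKM in WT mice after UIRI. Il20rb thus pointed up after UUO and down after UIRI, with a difference of 0.77 ± 0.18 (SE, limma adjusted p = 0.15). Il6st, called after UUO and at 0.00 after UIRI, had a difference of −0.69 (adjusted p = 0.196 from limma), Tnfrsf14 one of −0.73 (0.208), Il5ra, a chain of the IL-5 receptor, one of −0.79 (0.208) and Tnfrsf21 one of 0.75 (adjusted p = 0.294 from limma). A call in 1 table and none in the other is therefore not shown to be a difference for any member.

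**Figure D5:**
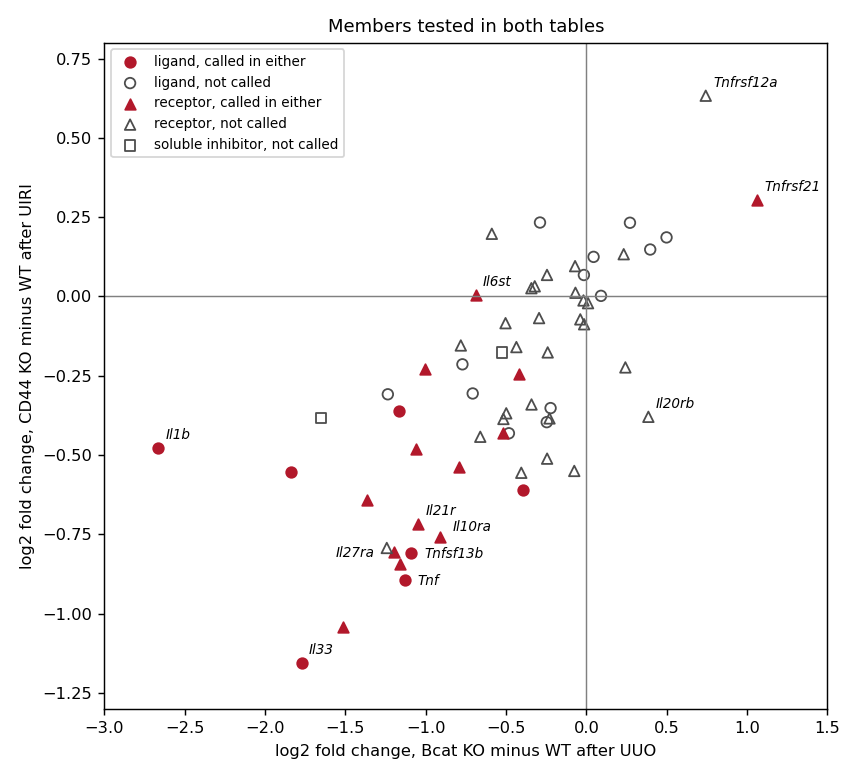
Log2 fold changes of the 63 members tested in both tables, Bcat KO minus WT after UUO (x axis) against CD44 KO minus WT after UIRI (y axis), with circles for ligands, triangles for receptors and squares for soluble inhibitors. Members called in either table are filled. Below and left of 0 lie 43 members, and Tnfrsf12a and Tnfrsf21 lie at the upper right. For some of the 43, Il1rl1 and Tnfsf8 among them, a negative value after UUO was built into the filter.

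Some ligand and receptor pairs moved together and some did not. BAFF and its receptor TACI were both called lower after UUO (Tnfsf13b −1.09, Tnfrsf13b −1.01), while after UIRI the ligand was called and Tnfrsf13b was at −0.23. The IL-33 ligand was called lower after UUO and its receptor Il1rl1 was at −0.78 without a call. For TWEAK the ligand Tnfsf12 was at 0.09 after UUO and 0.00 after UIRI, beside 0.74 and 0.63 for the receptor Tnfrsf12a. For HVEM, the receptor Tnfrsf14 was called after UUO (−1.37), and its ligand Tnfsf14 (LIGHT) was at −0.48. Il1rl1 and Tnfsf14 passed the filter after UUO only through the WT mean, so for them a negative value was built into the filter. The γ chain (Il2rg −1.51) was lower after UUO with Il2rb and Il21r, while the ligands Il2 and Il21 stayed below the filter in both tables.

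Members that lie next to each other in the genome were compared as well. The IL-1 receptor cluster on chromosome 1 (40074079 to 40551705, GRCm38) holds Il1r2, Il1r1, Il1rl2, Il1rl1, Il18r1 and Il18rap. All 6 of them had negative log2 fold changes in both tables, 1 of them called after UUO and 0 after UIRI. After UUO, 2 tested receptors of the IL-1 family, Il1rl1 among them, passed the filter only through the WT mean. For these a lower value in Bcat KO mice was built into the filter. The IL-1 ligand cluster on chromosome 2 (24153161 to 24351494) holds 6 members, of which 3 were tested after UUO and 2 after UIRI, all negative, with Il1f6 called after UUO. Of the 3, Il1f9 passed the filter only through the WT mean, so its sign was built into the filter too. Tnfsf12, Tnfsf13 and Tnfsfm13 on chromosome 11 (69682577 to 69696098) overlap on a strand, so reads may be split between them, and none of the 3 was called.

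Promoter sequence is shown for a few of the called members, as members that fell in both tables (Tnfsf13b and Il21r), the member that was higher (Tnfrsf21) and the called TNF receptor with the most motif matches (Tnfrsf1b). Of the 21 members called in either table, 17 had a window in the RefSeq promoter table (GRCm38.p6), and 12 of these began within 5 bases of the gene start in the expression tables. Searched on both strands of the 250 bases before the start were GGG and CC with any 5 bases between them (NF-κB), GAAA and GAAA with any 2 bases between them (interferon response), TTCNNNGAA (STAT), CTTTGA (the TCF/LEF core, through which β-catenin acts), TGANTCA (AP-1) and GAGGAAGT (PU.1). They occurred in 45.8%, 2.98%, 7.02%, 13.8%, 6.75% and 2.44% of all 32851 windows. The called members with a match numbered 7 of 17 for NF-κB, 2 for interferon response, 3 for STAT, 1 (Tnfrsf13b) for TCF/LEF, 1 for AP-1 and 0 for PU.1. Below, each window is printed 5′ to 3′ on the strand of its gene, with matches in capitals. Overlapping matches run together.
Tnfsf13b, chr8:10006217-10006466, + strand: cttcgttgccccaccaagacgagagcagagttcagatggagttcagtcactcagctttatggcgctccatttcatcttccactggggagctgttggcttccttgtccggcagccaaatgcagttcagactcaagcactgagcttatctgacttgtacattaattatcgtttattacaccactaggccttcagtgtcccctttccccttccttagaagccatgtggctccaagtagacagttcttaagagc
Il21r, chr7:125603179-125603428, + strand: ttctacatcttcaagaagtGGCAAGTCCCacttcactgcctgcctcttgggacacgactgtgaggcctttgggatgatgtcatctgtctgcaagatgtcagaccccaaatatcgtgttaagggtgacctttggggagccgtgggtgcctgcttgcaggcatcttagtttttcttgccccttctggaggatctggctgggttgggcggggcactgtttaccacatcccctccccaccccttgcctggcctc
Tnfrsf21, chr17:43016305-43016554, + strand: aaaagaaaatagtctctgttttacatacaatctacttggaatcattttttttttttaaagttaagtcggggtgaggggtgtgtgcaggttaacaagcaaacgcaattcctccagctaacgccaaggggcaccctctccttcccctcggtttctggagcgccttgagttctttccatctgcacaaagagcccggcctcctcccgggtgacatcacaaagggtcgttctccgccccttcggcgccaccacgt
Tnfrsf1b, chr4:145246871-145247120, − strand: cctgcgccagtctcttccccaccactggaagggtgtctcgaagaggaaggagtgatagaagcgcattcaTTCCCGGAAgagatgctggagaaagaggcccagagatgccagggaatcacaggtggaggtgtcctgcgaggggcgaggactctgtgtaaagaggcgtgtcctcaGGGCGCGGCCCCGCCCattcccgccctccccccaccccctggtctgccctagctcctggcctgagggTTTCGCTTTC
The capitals mark an NF-κB match in Il21r, 231 to 222 bases before the start, and in Tnfrsf1b a STAT match (181 to 173 bases), 3 overlapping NF-κB matches (77 to 62 bases) and an interferon response match (10 to 1 bases). Tnfsf13b and Tnfrsf21 held none of the 6 motifs in this window. A match of letters shows neither binding nor its absence.

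Lists of the wider pathway held genes with other symbols. Their counts stand beside 4.36% of all genes called lower and 6.21% higher after UUO, and 2.19% lower and 4.02% higher after UIRI. Among TNF superfamily members with other names, 3 of 9 tested were called lower and 0 higher in Bcat KO mice after UUO. These were Ltb (lymphotoxin β, log2 fold change −1.03), Ngfr (a neurotrophin receptor, −1.11) and Relt (−0.48), and after UIRI Ltb alone was lower (1 of 8). Ltb was at 5.03, 6.12 and 3.88 FPKM in CD44 KO mice, against 10.999, 12.4 and 12.8 FPKM in WT mice (log2 fold change −1.14, adjusted p = 0.0267 from limma). Among cytokines and receptors that share gp130 or related chains, 3 of 11 tested were called lower after UIRI. Osmr, the oncostatin M receptor that pairs with gp130, was lower in both tables (−1.07 after UUO and −0.65 after UIRI). Ebi3, a subunit of IL-27, and Csf2rb, the common β chain of the IL-3, IL-5 and GM-CSF receptors, were lower after UIRI (−0.68 and −0.75).

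Of 34 genes for adaptors and the NF-κB chain, 1 was higher and 2 lower after UUO, and 1 higher and 0 lower after UIRI. Sigirr, a receptor that damps IL-1 family signals, was at 29.0, 30.2 and 23.9 FPKM in Bcat KO mice, against 13.5, 14.3 and 14.9 FPKM in WT mice. It was higher in both tables (log2 fold change 0.91, adjusted p = 0.0116, and 0.51, adjusted p = 0.0494, both from limma). Traf1 and Rel, an adaptor and an NF-κB subunit, were lower after UUO (−0.66 and −0.72). In JAK-STAT signalling 2 of 20 genes were lower after UUO, the phosphatase Ptpn6 (−0.83) and the inhibitor Socs1 (−0.65), and 0 were called after UIRI. Of 10 genes for the processing of these ligands, Casp1, Casp4 and Adam17 were lower after UUO (−1.24, −0.89 and −0.69), and Casp1, Casp4 and Gsdmd after UIRI (−0.62, −0.83 and −0.59). Casp1, which cleaves the precursors of IL-1β and IL-18, was at 1.48, 3.11 and 2.03 FPKM in Bcat KO mice, against 5.34, 6.21 and 7.9 FPKM in WT mice. Furin and Timp3, named after their values were seen, were higher after UIRI (0.76 and 1.07).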

How the data were processed

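RNA was sequenced from kidneys of 12 mice. Per the labels and the study's methods, the authors aligned reads with HISAT2 2.0.5 to GRCm38, summed reads over genes by featureCounts 1.5.0-p3 and deposited FPKM. Each knockout has a separate table holding also its 3 WT mice and the gene length in bases (another deposited value, used to recover reads). The authors compared groups with DESeq2 1.20.0. FPKM times gene length gave whole reads for 100% of values (within 0.01 read), with a depth term that followed median-of-ratios size factors computed separately in each table. Levels are therefore compared within a table. WT columns carry the same names in both tables and were assigned by the table that holds them. Whether counting used strand is not given in the sources used here.

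limma 3.58.1 in R 4.3.3 (lmFit, eBayes with a trend) was run on log2(FPKM + 1), a pseudocount of 1, two-sided, keeping genes that averaged 0.5 FPKM or more, with Benjamini-Hochberg adjustment over all of them. A pseudocount understates changes of low genes. With 3 mice a group, adjusted p-values draw on the spread pooled over genes, and the labels do not say more than that replicates are separate samples. Alternatives were a pseudocount of 0.1, no filter, a filter at 1 FPKM, TPM, limma without a trend, a block for the replicate number, voom on the recovered reads and each library left out. Scripts were tested on simulated data. Figures used Python 3.11.15 and Matplotlib 3.10.9.

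Named members were those called, the 5 ligands and 8 receptors with the highest mean in each table, a list of well known members, Ctnnb1 and Cd44, and of each pathway list the 3 called genes with the smallest p, and the 4 members with the smallest p for the difference of the effects. Il15ra, Il10rb, Tnfsf14, Il2, Il21 and others given as partners, neighbours or high in a single library were added after their values were seen. The members and gene lists were chosen with earlier results of these data known. The count of the gp130 list after UUO and the result of 1 of its genes are not reported here.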

Additional observations from a re-analysis of the deposited data

How the results depend on the processing

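The called members kept their direction under every alternative run. Uncalled values that changed sign are given below for the members named by the rules above and for Il15ra. The split over all genes after UUO turned under TPM. After UUO, no filter on low values gave 280 genes higher and 193 lower, with 0 members higher and 5 lower and medians of −0.28 for ligands and −0.24 for receptors. TPM gave 578 and 1178 genes and medians of −1.02 and −0.68, voom called 2 members higher with medians of −1.23 and −0.58, and a pseudocount of 0.1 gave −1.09 and −0.55. After UIRI, no filter gave 43 genes higher and 20 lower, 0 members lower and a ligand median of −0.083. TPM gave 220 genes higher and 473 lower and medians of −0.55 and −0.42, voom 711 genes lower, 1 member higher, 14 lower and medians of −0.46 and −0.41, and a pseudocount of 0.1 gave −0.44 and −0.36. The causes were not tested.

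Leaving out a library after UUO gave 130 to 1631 genes higher and 98 to 818 lower, 0 to 3 members higher and 4 to 16 lower, and medians of −0.78 to −0.42 for ligands and −0.44 to −0.31 for receptors. After UIRI it gave 0 to 1417 genes higher and 1 to 763 lower, 0 to 1 members higher and 0 to 13 lower, and medians of −0.37 to −0.19 for ligands and −0.36 to −0.19 for receptors. For the difference of the effects, 1 to 5 genes were positive and 0 to 1 negative, with 0 members.

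With the replicate number as a block, 992 genes were higher and 675 lower after UUO, with 1 member higher and 14 lower, and 0 genes and 0 members passed after UIRI. Same-numbered libraries of the 2 genotypes deviated together weakly or not at all (r = 0.08, 0.20 and 0.04 after UUO, −0.14, −0.03 and −0.03 after UIRI). After UUO, 2 Bcat KO libraries deviated most like the WT library of their own number, against 0 CD44 KO libraries after UIRI. The numbers were not taken to pair the mice, and a pairing after UUO is not excluded.

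Values that changed sign were all uncalled. Those listed here are of the members named by rule and of Il15ra, and further members changed sign as well, such as Il17rb after UIRI (0.03, and −0.10 under TPM). Under TPM those listed were Il15 (−0.16) and Tnfsf12 (−0.12) after UUO, and Il17ra (−0.11), Il6st (−0.13), Tnfrsf1a (−0.037) and Tnfsf12 (−0.13) after UIRI. Under voom they were Il17ra (−0.0033), Il6st (−0.016) and Tnfsf12 (−0.016) after UIRI. With a library left out, Il15 ranged from −0.30 to 0.32, Il15ra from −0.20 to 0.20, Il22ra1 from −0.075 to 0.27, Tnfsf10 from −0.65 to 0.025, Il11ra1 from −0.13 to 0.10, Il17ra from −0.24 to 0.13 and Tnfrsf1a from −0.13 to 0.017 after UUO. After UIRI, Il15 ranged from −0.052 to 0.25, Il6st from −0.10 to 0.11, Tnfsf12 from −0.043 to 0.052, Il11ra1 from −0.10 to 0.17 and Il17ra from −0.035 to 0.075. Members of few reads, such as Il17a and Il22, are at the limit of this depth.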

Other observations

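A pair of antisense genes at the members' loci fell outside the protein-coding rule. Il1bos, antisense to Il1b, was at 0.156, 0.127 and 0.0944 FPKM in Bcat KO mice and at 0.19, 0.0717 and 0.829 FPKM in WT mice after UUO, highest in the library that was also highest for Il1b. Tnfsf13os, antisense to Tnfsf12 and Tnfsf13, was at 1.41, 1.19 and 1.98 FPKM in Bcat KO mice and at 1.44, 0.963 and 1.11 FPKM in WT mice (log2 fold change 0.21, adjusted p = 0.426 from limma).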
